A study of Mus musculus with 6 samples.

Results

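The transcripts of the cytosolic ribosomal proteins were examined in 6 single mouse blastocysts. Members were the protein-coding genes whose GENCODE M21 symbol has the form Rps or Rpl with a number, Rplp0 to Rplp2, or Rpsa. This rule found 81 of the 12149 genes in the table, 32 of the small subunit and 49 of the large subunit, spread over 19 chromosomes. Of the 83 symbols of this form in the annotation, Rpl24 and Rpl3l have no row in the table and were not analysed here. Each of the 81 members had reads in each of the 6 embryos.

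The embryos came from zygotes of C57BL/6 background that had received a microinjection of small RNAs isolated from sperm, at 2 ng/µl. In the control group (Ctl, 3 embryos) the small RNAs came from normal males, and in the other group (Dep, 3 embryos) from males made depressive by stress. There was no uninjected group, so both groups carry the injection and the culture. Embryos were collected at embryonic day 3.5, about 96 h after injection, and each library holds the RNA of 1 whole embryo. The labels give neither the sex of the embryos nor whether embryos of a group share parents or a preparation of small RNA, so p-values measure the spread between these embryos. The comparison asks whether sperm small RNAs of stressed males leave a different transcriptome in the early embryo. Values are normalized counts, which are reads divided by a size factor of the library.

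The ribosome has a small subunit, which binds the messenger RNA and decodes it, and a large subunit, which joins amino acids and holds the tunnel through which the new protein leaves. Each ribosomal protein is needed in about the same amount, and cells adjust their supply partly through a stretch of pyrimidines at the start of these mRNAs (the 5′ TOP motif), which lets mTOR signalling control their translation. Blastocysts make their own ribosomes after the embryonic genome has become active, and growth from this stage rests on them.

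Start-site sequences were read from RefSeq promoter windows (GRCm38.p6, 250 bases before to 50 after each annotated start), which were found for 61 of the 81 members. The first set shows members whose mean was higher or lower in Dep, with the longest run of C and T bases within 50 bases of the annotated start in capitals. Coordinates and strand follow each name, and the sequence is that of the gene's strand.
Rpl15, chr14:18270967-18270996, minus strand: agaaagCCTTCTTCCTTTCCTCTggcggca
Rpl5, chr5:107900498-107900527, plus strand: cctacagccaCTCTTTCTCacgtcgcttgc
Rps7, chr12:28635910-28635939, minus strand: tgtccccaCCTCTTTTCTTCCgccacccgg
Rps6, chr4:86857349-86857378, minus strand: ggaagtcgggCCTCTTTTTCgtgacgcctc
Rpl31, chr1:39367825-39367854, plus strand: tcgccacaCCTCTTCCTCCTCgcctccccg
Rplp2, chr7:141447636-141447665, plus strand: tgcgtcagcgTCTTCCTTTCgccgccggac
Rps12, chr10:23787181-23787210, minus strand: caccgccggCCTTTTCCCCTgccgccgccg
Rps21, chr2:180257403-180257432, plus strand: gcacgagctaCTTCCTTTCTgcgctctcgc
These 8 were chosen with their runs in view, and they carry one whichever way their mean differed. A run of 8 or more C or T bases near the start, on the gene's strand, was present in 57 of 72 member windows (79.2%). It was present in 31.7% of 11289 windows of the other protein-coding genes of the table and in 35.7% of all 32851 windows. The mirror search, for runs of 8 or more A or G bases, found 22.2% of member windows and 35.1% of those of the other genes of the table.

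The paralogues Rpl10l and Rpl7l1 are shown for contrast, because their longest runs were shorter, at 5 and 7 bases, and Rps27l is shown beside its partner Rps27.
Rpl10l, chr12:66284428-66284457, minus strand: cagtctctatgaTTCCCgcaaggcttgatg
Rpl7l1, chr17:46782670-46782699, minus strand: gtcgaggcgggCCTCTCTaccccgcccggt
Rps27, chr3:90213631-90213660, minus strand: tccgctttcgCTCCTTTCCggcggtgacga
Rps27l, chr9:66946054-66946083, plus strand: cccgcctccaCTCCTCTCCactcctccccg
Rps27 and Rps27l each carry a run of 9 bases, and a second annotated start of Rps27l has a longest run of 5. Short runs were not particular to paralogues. The longest run was 5 bases in Rps28, 6 in Rps3 and 7 in Rplp0, Rpsa and Rps4x, while the paralogues Rpl22l1 and Rpl39l had 10 and 9.

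Of 4 further motifs searched on both strands of the whole window, CCGGAAG, the core bound by ETS factors, was in 37.5% of member windows, 18.3% of those of the other genes of the table and 8.86% of all windows. AAGATGGC, the core of the YY1 motif, was in 11.1%, 4.63% and 2.75%. GGGCGG, the GC box, was in 62.5%, 63.4% and 35.7%, and TATAAA in 9.72%, 6.72% and 13.6%. Stretches of 3 members with CCGGAAG in capitals show the match in its setting.
Rps6, chr4:86857440-86857469, minus strand: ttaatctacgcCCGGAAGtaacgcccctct
Rps18, chr17:33955804-33955833, minus strand: agaaggccgaaCCGGAAGttatagctccgg
Rpl41, chr10:128549206-128549235, minus strand: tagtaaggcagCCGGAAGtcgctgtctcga
The capital letters begin 91, 157 and 56 bases before the annotated start, for Rps6, Rps18 and Rpl41. A match is a description of the letters and does not show that a factor binds there.

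Reads in listed genes ranged from 16543356 to 21548220 per embryo. Genes without a read numbered 691 in Dep 1, where the other 5 embryos had 5 to 106, and Dep 1 weighs on most results below. Trophectoderm markers summed to 46727 to 72154 normalized counts in Ctl and 40455 to 102473 in Dep, with the highest sum in Dep 1, and 8 of 8 markers were measured. Krt8 and Krt18 made up most of each sum. They, Cdx2, Gata3 and Eomes were highest in Dep 1, while Tfap2c was lowest there and Krt7 and Elf5 were highest in Ctl 2. Epiblast markers (8 of 8 measured) summed to 7461 to 10892 in Ctl and 6509 to 14368 in Dep, with Fgf4 at 0 in Dep 1, which had the lowest sum. Primitive endoderm markers (7 of 8 measured) summed to 7440 to 8872 and 3673 to 11274, with Sox17, Gata4 and Sox7 at 0 in Dep 1 and Gata4 also in Ctl 3, and the lowest sum was in Dep 1. Of 5 oocyte markers 2 were measured, at 1157 to 2572 and 723 to 3770, again highest in Dep 1. Nearly all of this sum was Ooep, while Zp3, the other marker measured, was at 0 in Dep 1. None of the 6 cumulus and granulosa markers or the 3 blood markers had a row in the table. In whole embryos, fewer cells of a type and less RNA per cell cannot be told apart, and the part of cell makeup in the results below was not tested.

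Most ribosomal protein genes had a somewhat higher mean log2 level in Dep, by an amount well within the spread between embryos. Of the 32 small subunit genes 26 were higher and 6 lower, with a median log2 fold of 0.11. Of the 49 large subunit genes 39 were higher and 10 lower, with a median of 0.15. Over all the genes tested, 5861 were higher and 6288 lower, with a median of -0.02. No member passed the test (limma, Benjamini-Hochberg adjusted p = 0.999675 at the smallest), as was so for all genes in the table (0.0% called). At an unadjusted p under 0.05 there were 0 members, where 1.85% of all genes in the table lay under it (0.831% higher and 1.02% lower in Dep). The standard errors of the members ran from 0.26 to 0.43 on the log2 scale. In no member did the Ctl and Dep embryos separate without overlap, where 3.09% of all genes separated with Dep higher and 3.8% with Dep lower. edgeR's quasi-likelihood test called 0 genes and DESeq2 called 1 gene, which is no member.

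**Figure D1:**
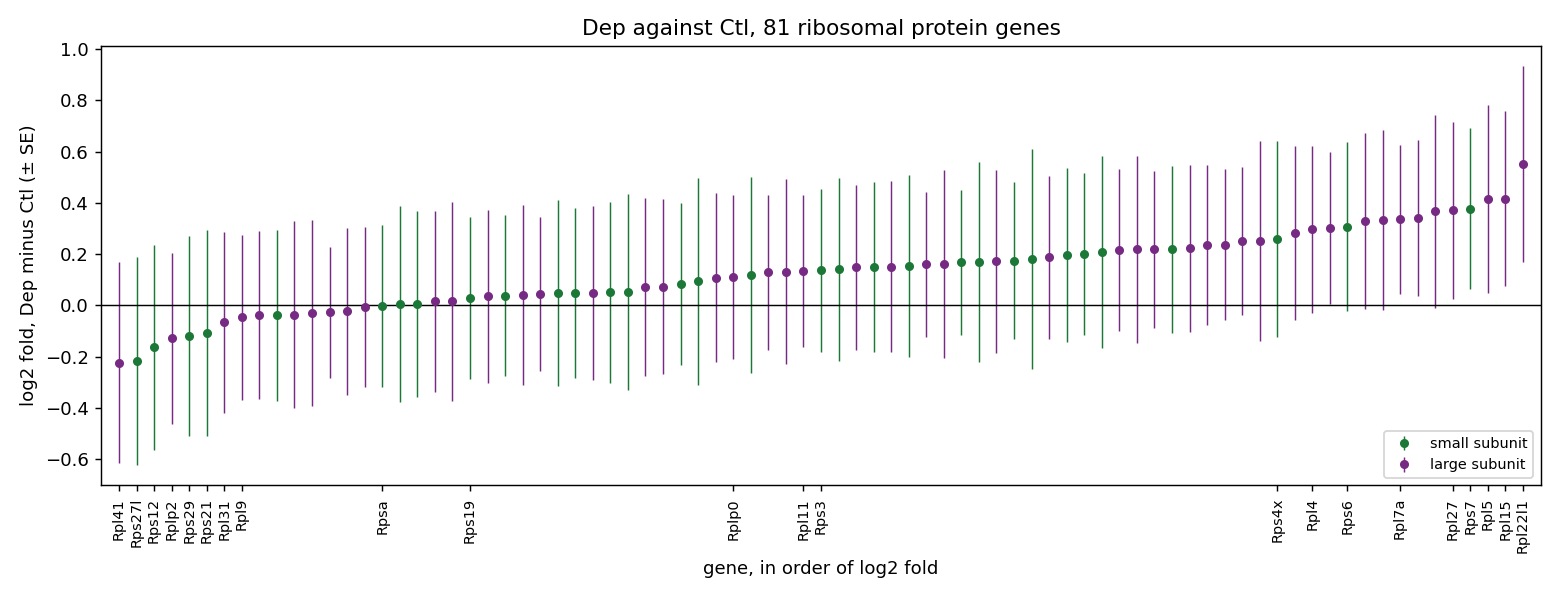
Log2 fold of Dep against Ctl (points, with bars of 1 SE) for each of the 81 ribosomal protein genes, in rising order, small subunit in green and large subunit in purple, with names under some of the genes described in the text. The values run from -0.22 (Rpl41) to 0.55 (Rpl22l1), and no gene passed the test.

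The share of reads taken by the members also overlapped between the groups. Small subunit genes took 2.28%, 1.72% and 2.02% of the reads in listed genes in the Ctl embryos, in their order from 1 to 3. The Dep embryos had 2.71%, 1.93% and 1.92%. Dep 1 was the highest of the 6, and Dep 2 and Dep 3 lay between Ctl 2 and Ctl 3. The Ctl mean was 2.01% ± 0.279 and the Dep mean 2.19% ± 0.451 (SD over 3 embryos). Large subunit genes took 2.93%, 2.27% and 2.44% in Ctl and 3.39%, 2.79% and 2.48% in Dep, with means of 2.55% ± 0.342 and 2.89% ± 0.462 (SD over 3 embryos). Between embryos of the same number, the large subunit share was higher in Dep in 3 of 3 pairs and the small subunit share in 2 of 3. By normalized counts, Dep was the higher embryo in each pair for 12 of 49 large and 1 of 32 small subunit genes, 13 of 81 in all, where 12.6% of all genes were so. No member was lower in each pair, where 12.6% of all genes were so. The fit with the number as a block called 0 genes (limma). The widest 95% Wilson half-width of a share was 0.0113 percentage points, which covers counting error only, so the spread between embryos and not depth sets the precision here.

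**Figure D2:**
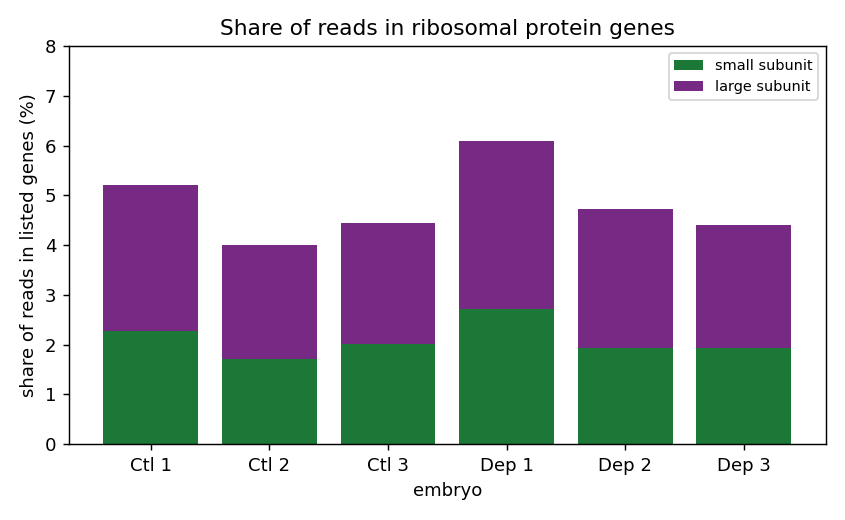
Share of reads in listed genes (%) taken by small subunit genes (green) and large subunit genes (purple) in each embryo, stacked, 1 bar per embryo. Dep 1 has the tallest bar at 6.10%, Ctl 1 follows at 5.21%, and the other 4 lie between 3.99% and 4.73%.

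The direction of the medians depended on which embryos were in the fit. Without Dep 1 the median log2 fold was -0.23 in the small subunit, where 3 of 32 genes were higher, and -0.10 in the large subunit, where 16 of 49 were higher. The Dep minus Ctl share of reads of the small subunit was then -0.0782 percentage points, against 0.182 with all embryos, while that of the large subunit stayed above 0, at 0.0906 against 0.341. Without Ctl 2 the medians were -0.04 and 0.02. Without Dep 3 both medians were 0.32, and 4 large subunit genes had an unadjusted p under 0.05 (where 1.91% of all genes were higher in Dep at that p). These were Rpl22l1, Rpl5, Rpl15 and Rpl27, and none passed after adjustment (limma, adjusted p = 0.838 for each).

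**Figure D3:**
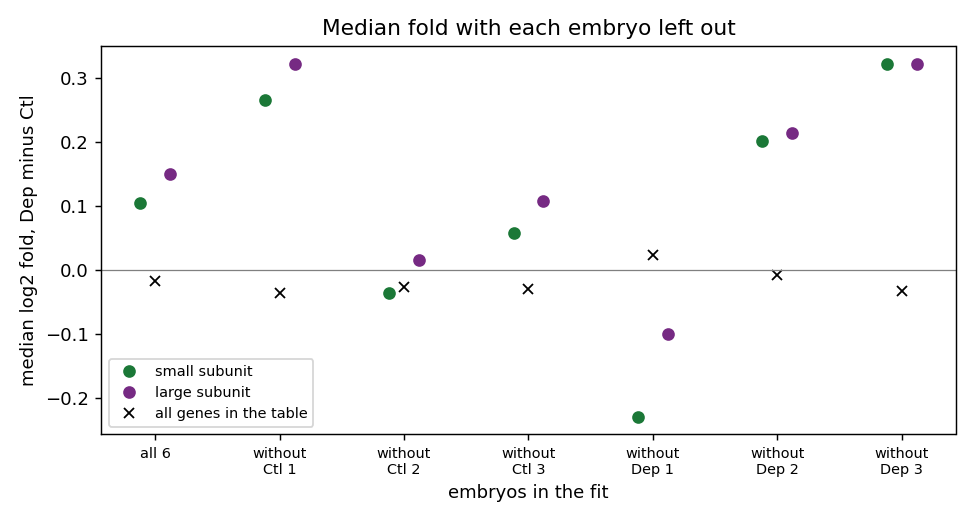
Median log2 fold of Dep against Ctl for small subunit genes (green), large subunit genes (purple) and all genes in the table (crosses), with all 6 embryos and with each left out in turn. Both subunit medians are below 0 without Dep 1, at -0.23 and -0.10, and reach 0.32 without Dep 3.

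Among large subunit genes with a higher mean in Dep, Rpl22l1, a paralogue of Rpl22, had the smallest p of all members. It had 828, 608 and 750.2 normalized counts in Ctl 1 to 3 and 1775, 1018 and 660 in Dep 1 to 3. Dep 1 and Dep 2 lay above all of the Ctl embryos and Dep 3 lay among them. The log2 fold was 0.55 ± 0.38 (SE; limma, adjusted p = 0.999675).

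Rpl5, which with Rpl11 escorts 5S ribosomal RNA into the large subunit and can bind Mdm2 when assembly fails, had 19525, 15234 and 11177 in Ctl and 25912, 25078 and 12119 in Dep. Its order was the same, with Dep 1 and Dep 2 above the Ctl embryos and Dep 3 among them, and its log2 fold was 0.41 ± 0.37 (SE). Rpl11 had 7423, 5123 and 5767 in Ctl and 9204, 6151 and 5120.0 in Dep, a log2 fold of 0.13. Rpl15 had 11951, 9529 and 7180 in Ctl and 17580, 13693 and 8072 in Dep; the log2 fold was 0.42 ± 0.34 (SE). Rpl7a had a log2 fold of 0.34 ± 0.29 (SE).

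On the lower side of the large subunit, Rpl41, which encodes a peptide so short that its coding length is 75 bases, had 33518, 17674 and 31168 in the Ctl embryos, against 35698, 14884 and 21802 in the Dep embryos. Dep 1 was the highest embryo and Dep 2 the lowest, so the log2 fold of -0.22 ± 0.39 (SE) joins embryos on both sides. Rplp2 had a log2 fold of -0.13, Rpl31 of -0.07 and Rpl9 of -0.05.

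In the small subunit, Rps7 had 11569, 8819 and 8663 in Ctl and 17489, 12965 and 8546 in Dep. Dep 1 and Dep 2 were the highest embryos and Dep 3 the lowest, and the log2 fold was 0.38 ± 0.32 (SE). Rps6, the protein phosphorylated by S6 kinase downstream of mTOR, had 23188, 19805 and 15464 in Ctl and 30029.9, 27886 and 16060.2 in Dep; the log2 fold was 0.31 ± 0.33 (SE). Again Dep 3 lay among the Ctl embryos. Rps4x, which is X-linked, had 21876, 10907 and 8568 in Ctl and 17343, 18723 and 10786 in Dep, so that a Ctl embryo was the highest.

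Rps27l had 19670.2, 9981 and 15024 in Ctl and 22493, 8408 and 9904 in Dep; the log2 fold was -0.22 ± 0.41 (SE). Rps12 followed at -0.16, Rps29 at -0.12 and Rps21 at -0.11. In Rps27l, Dep 2 and Dep 3 were the lowest embryos and Dep 1 the highest.

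By role, the stalk that recruits elongation factors (Rplp0, Rplp1, Rplp2 and Rpl12) had 2 of 4 genes higher in Dep. For Rplp0 the Ctl mean was 54252 ± 4988 normalized counts and the Dep mean 59022 ± 10364 (SD over 3 embryos). The 9 proteins that line the exit tunnel or surround its mouth had 6 higher, with a median log2 fold of 0.05, and Rpl4, whose loop reaches into the tunnel, was at 0.30. The 8 proteins along the path of the mRNA and at the decoding site had 7 higher, with a median of 0.05, and Rps3, which sits at the mRNA entry, was at 0.14. Rpsa, near the mRNA exit, was at -0.004. The 10 members of a list of genes mutated in Diamond-Blackfan anaemia, an inherited failure of red cell formation, were all higher on their means. Their median was 0.14, but none passed the test, and Rps19, the first such gene known, was at 0.03. Of all 81 members 65 (80.2%) were higher. The list is not a full one, and Rps29, Rpl31 and Rpl9, which it leaves out, were lower (-0.12, -0.07 and -0.05).

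By the reference mRNA, the paralogues differed in level per length from their partners. Levels between genes are given in fragments per kilobase of the reference mRNA, scaled to library depth (FPKM), as mean ± SD over the 6 embryos. Rps27l had 1523 ± 509.7 FPKM and Rps27 417 ± 130.4, so here the paralogue was the higher one. Rpl22 had 358 ± 86.1 and Rpl22l1 90.6 ± 33.7. Rpl39 had 279 ± 83.2 and Rpl39l, best known from male germ cells, 129 ± 28.5, but with the union of all exons as the length these were 119 and 125. Rpl10 had 1036 ± 306 and Rpl10l, an autosomal copy of an X-linked gene, 88.1 ± 7.16. Rpl7 had 894 ± 222 and Rpl7l1 98.5 ± 25.4.

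Over all members the level per length had a median of 541 FPKM, with quartiles of 348 and 894, and the small subunit median was 649 against 478 in the large subunit. The highest were Rps2 at 2727 ± 493, Rpl41 at 2386 ± 708, Rplp0 at 2269 ± 292 and Rpl13 at 1944 ± 295. Rpl41 differed from Rps2 and from Rplp0 by less than the SD over embryos of either gene. Rps2 and Rplp0 differed by less than the SD of Rps2 but by more than that of Rplp0. The lowest were Rpl12 at 30.7 ± 6.03 and Rps15a at 39.4 ± 12.9, and the ratio of the highest member to the lowest was 88.8. The level depends on the length used, and Rps15a and Rps20 (157 ± 65.8) were divided by reference mRNAs of 5179 and 3706 bases although their coding lengths are 390 and 357. Ribosomal protein genes have many near-identical pseudogenes. The annotation gives 300 of them a symbol with the ending -ps, 44 of these are in the table, and their counts summed to 0.626% of the members' normalized counts. Some of the 44, such as Rpl9-ps6, are annotated as protein-coding. Copies under other names were not counted, such as Rps4l, at 6649 to 18079.8 normalized counts per embryo, so the percentage is not that of all pseudogenes. How reads were divided between genes and copies is not given in the sources used here, so levels of single members are uncertain.

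The embryos differed within both groups. The median log2 deviation of the members from the mean of the 6 embryos was 0.28, -0.32 and -0.11 for Ctl 1, 2 and 3, and 0.63, -0.16 and -0.34 for Dep 1, 2 and 3. Dep 1 was the highest embryo in 72 of 81 members and above the mean in all 81, and Ctl 1 was above the mean in 79. Ctl 2 was below the mean in 79 and Dep 3 in 78. Each group thus holds an embryo with high levels and one with low levels. The ratio of highest to lowest embryo ran from 1.25 in Rpl10l to 3.49 in Rps20.

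**Figure D4:**
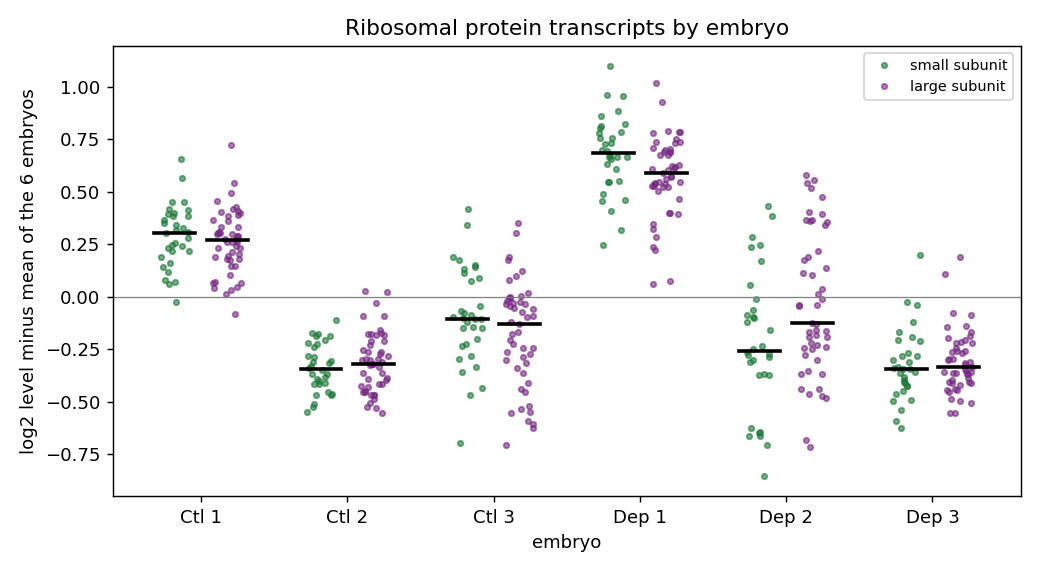
Log2 level of each ribosomal protein gene minus its mean over the 6 embryos, by embryo, with small subunit genes in green, large subunit genes in purple and black bars for the medians. Dep 1 and Ctl 1 lie above 0 and Ctl 2 and Dep 3 below it in nearly all genes, while Dep 2 spreads widely.

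Members followed one another across embryos. The correlation of a member's log2 level with the mean of the others had a median r of 0.92. Of the 81 members, 42 were over 0.9. This is a description over 6 embryos, in each of which all members share the library and its size factor. Rpl11 followed closest, at 0.996. The same r was not taken for other genes, so these values do not show a trait particular to ribosomal protein genes. Under 0.5 were 3 members, Rpl7l1 (0.17), Rpl12 (0.32) and Rps2 (0.35), followed by Rpl3 (0.50) and Rpl10l (0.53). Rpl7l1 had 4806, 4681 and 3145 in Ctl and 4796, 6872 and 4037 in Dep, with the highest value in Dep 2. Rps2 had 53132, 47736 and 59219 in Ctl and 64121, 41719 and 62027 in Dep, so that Dep 3, low for most members, was second highest.

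Within the set, the deviations were ordered by coding length. Of the 27 shortest members (75 to 396 bases), 16 were higher and 11 lower, and their median log2 fold was 0.02. Of the 27 of middle length (399 to 576 bases), 24 were higher and 3 lower, with 0.14 as the median. Of the 27 longest (582 to 1257 bases), 25 were higher and 2 lower, and the median was 0.25. Over the 81 members, r between log2 fold and log2 coding length was 0.54. The same r with the deviation was -0.52, 0.72 and -0.57 for Ctl 1, 2 and 3. It was -0.49 for Dep 1, 0.64 for Dep 2 and 0.0004 for Dep 3. These are descriptions across genes of the same libraries, and genes are not independent replicates. The relation rested on Dep 2, in which short members had a median deviation of -0.37 and long ones 0.24. Without Dep 2, r was -0.06.

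Short transcripts outside the ribosome differed between the embryos in a like order. For mRNAs of up to 750 bases, the median deviation of the 34 members was 0.34, -0.44 and -0.05 in Ctl and 0.71, -0.26 and -0.32 in Dep. That of 286 other protein-coding genes was 0.33, -0.25 and 0.01 in Ctl and 0.67, -0.27 and -0.32 in Dep. The median log2 fold in this class was 0.11 for members and -0.02 for the others. In the short, middle and long coding classes, the other genes had median log2 folds of 0.0008, 0.01 and -0.03. Their median deviations in Dep 2 were -0.20, 0.05 and 0.09. These deviations had the members' order in Ctl 1, Ctl 2, Dep 1 and Dep 2, but not in Ctl 3 and Dep 3. Over the members, of 75 to 1257 coding bases, r of log2 fold with log2 coding length was 0.54. Over 11066 other genes it was -0.09, but these reach from 63 to 100401 bases, so the ranges are unlike. With the deviation, their r ran from -0.17 (Dep 1) to 0.24 (Dep 3). In members, r of log2 fold with log2 mRNA length was 0.21. The part of transcript length or RNA quality in the members' differences was not tested.

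**Figure D5:**
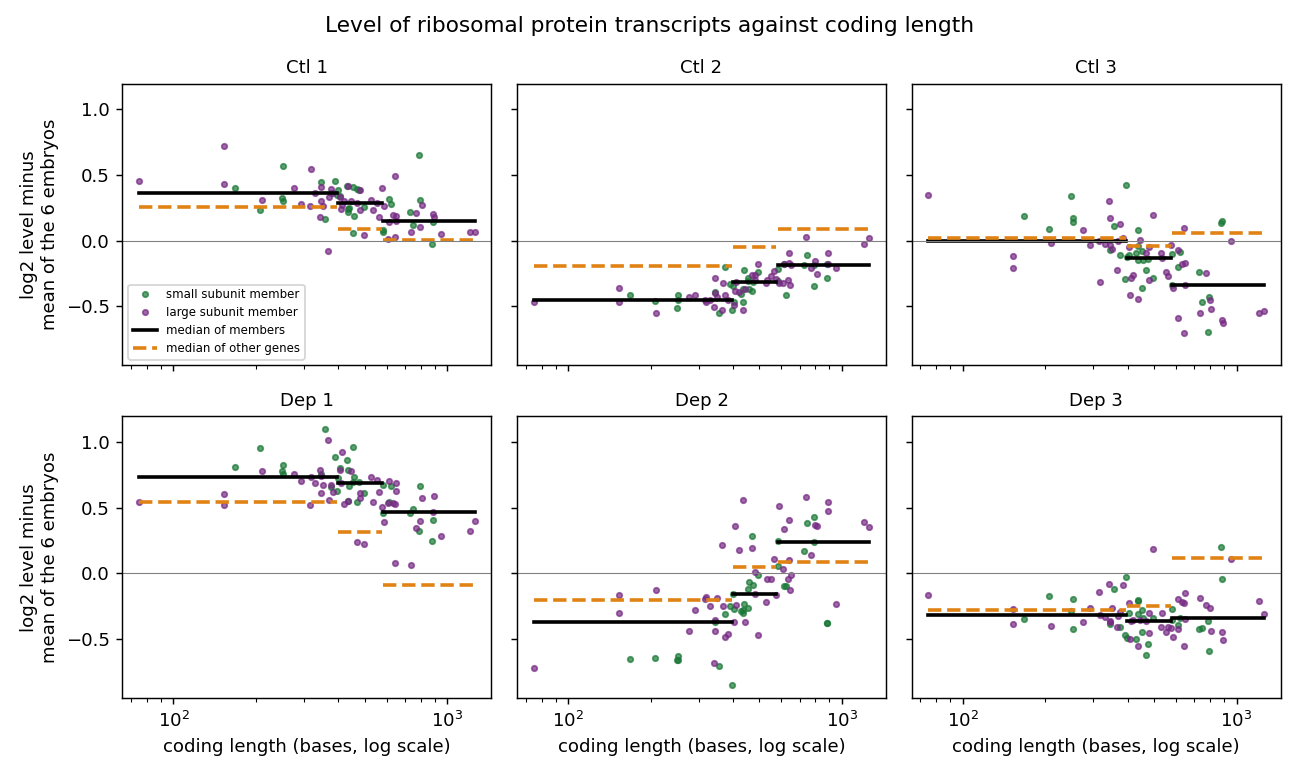
Log2 level minus the mean of the 6 embryos against coding length (bases, log scale) for the 81 members, 1 panel per embryo, with medians of members (black lines) and of other protein-coding genes (dashed orange lines) in 3 length classes. Short members lie below long ones in Ctl 2 and Dep 2 and above them in Ctl 1, Ctl 3 and Dep 1. The long class of the other genes reaches 100401 bases, beyond the lengths drawn.

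Genes around the ribosome gave a mixed picture, and in every list described here 0 members passed the test or had an unadjusted p under 0.05 (limma). Of 4 ribosomal proteins that the symbol rule does not catch, 3 were higher in Dep. Rack1, a scaffold on the head of the small subunit, had 17690.2, 13643 and 11286 in Ctl and 20438, 32544 and 14278 in Dep; the log2 fold was 0.60 ± 0.35 (SE; limma, adjusted p = 0.999675). Dep 2 was its highest embryo, unlike most members. Rpl36al was at 0.14 and Fau, a fusion with a small subunit protein, at 0.04.

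Factors that assemble the small subunit had 21 of 36 higher, and their median log2 fold was 0.05. Tsr1, a late assembly factor, had 244, 381 and 357 in Ctl and 552, 818 and 431 in Dep. Nob1, which makes the final cut of 18S ribosomal RNA, had 929, 1016 and 907 in Ctl and 1596, 2083 and 1023 in Dep. In these 2 genes and in Tbl3 each Dep embryo lay above each Ctl embryo, and in Heatr1 each lay below, which makes 3 of 36 higher and 1 lower (3.09% and 3.8% of all genes). Tsr1 had a log2 fold of 0.85 ± 0.39 (SE; limma, adjusted p = 0.999675). Factors of the large subunit had 32 of 46 higher, with a median of 0.10, and 2 of the 46, Rrs1 and Senp3, lay lower in each Dep embryo than in each Ctl embryo (3.8% of all genes). snoRNP proteins, which guide modification of ribosomal RNA, had 8 of 12 higher, with a median of 0.10, and Gar1 alone had each Dep embryo below each Ctl embryo. Genes of RNA polymerase I transcription, which makes that RNA, had 9 of 19 higher, with a median of -0.02.

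All 7 genes of a list of translation elongation factors, which also holds Eef2k, a kinase that inhibits elongation, had higher means in Dep. Their median was 0.33. Eef1g, of the exchange complex for elongation factor 1, had 11719, 11417 and 8931 in Ctl and 16230, 16952 and 10304 in Dep, with Dep 3 among the Ctl embryos. Other transcripts with a 5′ TOP motif had 11 of 16 higher, with a median of 0.10. Regulators of ribosomal protein expression had 10 of 23 higher, with a median of -0.01, and Myc, which drives ribosome genes in many cells, was at -0.80 ± 0.51 (SE). Genes of the p53 response to failed ribosome assembly had 4 of 10 higher, with a median of -0.04.

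In the authors' deposited table of the comparison, 0 members had an adjusted p under 0.05, and 1 gene in all did. The authors' deposited table gave median log2 folds of 0.17 for the small subunit and 0.19 for the large.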

How the data were processed

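Per the labels' protocols, RNA of lysed single blastocysts was turned into cDNA using the SMART-Seq v4 kit. HISAT2, Cufflinks 2.2.1 and the mm10 build are named in the submitters' processing notes, without their roles. What counted the reads, and on which annotation, is not given in the sources used here. Each gene has 1 signal value per embryo in the deposited table, which from its values is a count of reads over a size factor, and beside these stand the authors' log2 folds, p-values and test scores. The lowest mean is 14.2, so lower genes had been left out. Of the identifiers, 11829 matched GENCODE M21 (GRCm38) and 320 did not. When the size factors were undone, 100% of values came out as whole reads in every embryo (tolerance 0.01 reads).

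The main test was limma 3.58.1 with a mean-variance trend on log2(normalized count + 1), Dep against Ctl, with Benjamini-Hochberg adjustment over all 12149 genes and a threshold of 0.05. The added 1 makes folds of low genes smaller. An embryo without reads can instead make a log2 fold larger than the group means give. Fgf4, at 0 in Dep 1, had a log2 fold of -3.26 with means of 231 in Ctl and 55.3 in Dep. As alternatives, the recovered reads were tested with edgeR 4.0.16 (quasi-likelihood) and DESeq2 1.42.0 (R 4.3.3, Python 3.11.15). The fit was tested on simulated data. FPKM used recovered reads and 1 reference mRNA per gene.

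The members and lists were chosen with earlier results of these data known. Named members were the 4 of smallest p in each direction and the 3 highest and 3 lowest levels of each subunit, a set by role, and the 5 that followed the others least. Of other lists up to 3 were eligible, and some genes that separated by group were named after their values were seen, as were Rpl27 and Senp3. Some genes that the rule took are left unreported. Other alternatives were the pseudocount (0.5, 10), a minimum mean of 100, TMM and quantile scaling, library weights, no trend, a replicate block and each embryo left out.

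Same-numbered embryos deviated together, with r of 0.133, 0.151 and 0.129 over all genes, each over 0.1. Between embryos of other numbers r ran from -0.158 to 0.0445. Over the members, r was 0.244, 0.782 and 0.719 between same-numbered embryos and -0.818 to 0.465 between others. No label says that the numbers pair the embryos, and these r do not settle it. The main fit has no block, and the fit with the number as a block is an alternative. In a chi-square test of reads, each of the 15 pairs of libraries differed by far more than sampling noise (86.6 to 218 per degree of freedom).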

Additional observations from a re-analysis of the deposited data

How the results depend on the processing

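DESeq2 called 1 gene in all, and the other settings called 0. The fit with the replicate number as a block called 0 genes and left the subunit medians at 0.11 and 0.15, while genes at an unadjusted p under 0.05 went from 225 to 420, with 0 members among them. With each embryo left out, the small subunit median ran from -0.23 (without Dep 1) to 0.32 (without Dep 3) and was -0.04 without Ctl 2, and the large subunit median ran from -0.10 (without Dep 1) to 0.32. The Dep minus Ctl share of reads ran from -0.0782 (without Dep 1) to 0.319 percentage points in the small subunit and from 0.0906 (without Dep 1) to 0.546 in the large. Library weights gave medians of -0.0741 (12 of 32 higher) and 0.03 (30 of 49 higher), and quantile scaling gave 0.03 and 0.09. The cause was not tested. The median level per length was 245 FPKM with the union of all exons as the length, against 541, an alternative added after seeing the data, since the union of exons is longer. The r of log2 fold with coding length, a measure also added after seeing the data, was -0.0600 without Dep 2, and between 0.28 and 0.70 in the other settings. Of 40 named members, 10 kept the sign of their log2 fold in all 16 other settings and 30 changed it in at least 1.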

Other observations

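Rps4l, annotated as a transcribed processed pseudogene and so outside the symbol rule, was chosen after its values were seen. It had 11471, 12495 and 6736 normalized counts in Ctl 1 to 3 and 18079.8, 14319.7 and 6649 in Dep 1 to 3, and its level per length was 658 ± 210.5 FPKM (SD over 6 embryos), near the 809 ± 255 of Rps4x.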
